A study of Mus musculus with 14 samples.

Results

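The S100 genes described here are 9 of the 55401 genes of the count table: S100a1, S100a4, S100a6, S100a10, S100a11, S100a13, S100a14, S100a16 and S100g. The family was chosen by measured values: S100a6 and S100a11 led the APEX2-ACTB libraries when these were set against the APEX2-GFP libraries. The members' values in that comparison are given as a description and carry no test. All 9 were found in the table. RNA had been labeled and captured by APEX-seq in small intestinal organoids (sIOs), which are cultures of intestinal epithelium grown from adult male and female C57BL/6J mice in matrigel. APEX2 is a peroxidase that, in biotin-phenol and H2O2, attaches biotin to RNA close to the protein it is fused to, and the labeled RNA is then pulled down with streptavidin. Every fusion was delivered by lentivirus in a vector that also expresses ZsGreen1, so the ACTB and GFP libraries carry a fusion too. There were 4 libraries of APEX2-V5-DPP4, a fusion to a membrane protein of the apical surface, 4 of APEX2-V5-ACTB, a fusion to actin in the cytoplasm, and 4 of APEX2-V5-GFP, a fusion spread through the cytoplasm. The study saw weaker V5 staining with the ACTB fusion and for that reason took GFP as its cytoplasmic bait from then on. A single library each of MITO-1 and MITO-1c carried a fusion directed to mitochondria. The study compared mitochondrial samples with and without H2O2, the step that starts labeling, but the labels do not say which of these libraries, if either, went without it. The 14 libraries held 9442594 to 36492010 counts, with DPP4 library 4 and GFP library 4 the shallowest.

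S100 proteins are small calcium sensors that act as dimers. Each chain has a pair of EF-hands, helix-loop-helix folds whose loops hold calcium, and calcium opens a surface that grips other proteins such as annexins, which bind membranes, and parts of the cytoskeleton. In enterocytes S100g, also called calbindin-D9k, is the exception: it works as a calcium buffer that carries calcium across the cell during absorption. S100a10 is the partner of annexin A2 and has lost the ability to bind calcium, S100a11 binds annexin A1, and S100a6, also called calcyclin, binds the ubiquitin ligase adaptor Cacybp.

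The calcium loop shows what the family shares and where members depart from it. In the C-terminal EF-hand 12 residues form the loop, and side chains at positions 1, 3, 5 and 12 help to hold the ion. The principal coding transcript of each member was searched for codons of a loop with aspartate at position 1, aspartate, asparagine or serine at positions 3 and 5, and glutamate at position 12. A match was found in 7 of the 9 members and none in S100a10 and S100a14. The 36 bases that encode it are given from the GENCODE M21 transcripts of GRCm38, 5′ to 3′, with the codons of the 4 positions in capitals.
S100a6: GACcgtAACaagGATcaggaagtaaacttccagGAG
S100a11: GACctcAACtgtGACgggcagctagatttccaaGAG
S100a16: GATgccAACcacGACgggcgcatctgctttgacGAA
S100a1: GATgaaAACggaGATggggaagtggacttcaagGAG
S100a13: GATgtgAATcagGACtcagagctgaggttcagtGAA
S100a4: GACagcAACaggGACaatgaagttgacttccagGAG
S100g: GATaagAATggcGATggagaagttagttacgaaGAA
Those of S100a6 and S100a11 lie at chr3:90614233-90614268 and chr3:93526037-93526072 on the plus strand, and that of S100g at chrX:162962169-162962204 on the minus strand. Aspartate at position 1 was fixed by the search, and at position 3 all 7 encode asparagine.

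The members sit in 3 places of the genome (GRCm38). S100a1, S100a13, S100a14, S100a16, S100a4 and S100a6 fill 113.1 kb of chromosome 3 (90511034 to 90624181). S100a11 and S100a10 are neighbours on the same chromosome (93520488 to 93564643), 2.9 Mb farther on, and S100g is on X (162961992 to 162964599), on the opposite strand to Ctps2 with no shared exon base. S100a1 and S100a13 point away from each other with 42 bases between their starts. S100a4 shares 302 of its 584 exon bases with Gm42674 on the same strand, and the counting used here leaves out reads that fall on both genes.

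The promoters of S100a6 and S100a11 are shown because these genes led the ACTB libraries from different blocks of the chromosome. The RefSeq table (GRCm38.p6) held the 250 bases before the start for 7 of the 9 members, and S100a10 and S100a14 had no entry. Each window is written 5′ to 3′ on the plus strand, with matches to any searched motif in capitals.
S100a6 (chr3:90612644-90612893): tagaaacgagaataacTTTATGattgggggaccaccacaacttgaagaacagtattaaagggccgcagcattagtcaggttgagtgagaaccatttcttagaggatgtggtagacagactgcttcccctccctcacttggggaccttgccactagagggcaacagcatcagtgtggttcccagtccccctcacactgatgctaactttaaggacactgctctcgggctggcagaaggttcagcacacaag
S100a11 (chr3:93520246-93520495): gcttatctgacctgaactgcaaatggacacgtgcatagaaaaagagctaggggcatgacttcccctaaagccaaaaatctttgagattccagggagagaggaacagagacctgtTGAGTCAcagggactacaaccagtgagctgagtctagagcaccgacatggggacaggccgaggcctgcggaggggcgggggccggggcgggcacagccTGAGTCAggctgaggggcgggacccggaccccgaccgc
Both strands were searched for the TATA box as TATAAA, for the AP-1 motif as TGANTCA, for the TEAD motif as GGAATG and for the CDX motif as TTTATG, a choice made with the values below known. TGANTCA was present at 2 places in the S100a11 window, starting at bases -136 and -38 from the start site, and 6.75% of all 32851 windows held it. TTTATG was present in the S100a6 window at base -234, and 10.8% of all windows held it. A TGANTCA match also stood in 1 of the 2 windows of S100a16, and S100a4 had TATAAA at base -31, a motif in 12.4% of all windows. GGAATG was in none of the members' windows and in 12.6% of all windows. No matches overlapped. These letters describe the windows and were not tested against the levels.

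Over the 12 libraries of the 3 replicated baits, S100a6 was the member with the highest mean level per kilobase (kb) of exon, 173.5 CPM per kb, where CPM are counts scaled to a library size normalized by TMM. S100g followed with 92.3, S100a1 with 73.95, S100a10 with 68.91, S100a11 with 66.4, S100a16 with 28.9, S100a14 with 23.11 and S100a13 with 8.705 CPM per kb. Per kb of exon, S100a6 came first only in ACTB, the bait that chose it, at 403.1 CPM per kb. In DPP4 it averaged 55.82 CPM per kb, under S100g (156.9), S100a10 (75.06) and S100a1 (63.39), and in GFP 61.55 CPM per kb, under S100a1 (92.11), S100g (76.68) and S100a10 (63.79). Neighbours among these 4 genes differed, in DPP4 and in GFP, by less than the larger of their SDs over 4 libraries. From S100g down to S100a11 the order is not resolved, since each gene varied over the 12 libraries by far more than these means differ (S100g by 1.633 to 209.1 CPM and S100a10 by 6.028 to 146.4 CPM). Values per kb, here and in the shares below, also assume reads spread evenly over the exons, which was not checked. The order depends on the length used as well. By CPM not divided by length, S100a6 came first in GFP too (84.15 CPM, SD 58.0), followed by S100a10 (77.33 CPM). In DPP4, S100a10 then came first (90.96 CPM), followed by S100a6 (76.33 CPM). S100a4, a gene of motile and mesenchymal cells, was close to absent: 14 counts in the 14 libraries together, 0 in every DPP4 and every GFP library, and 10, 1, 0 and 0 in ACTB libraries 1 to 4. In a library, 3 counts correspond to 0.0675 to 0.341 CPM, which is the level a count of 0 allows, for counting error only. Reads on the exon bases that S100a4 shares with Gm42674 were left out, so this level does not cover them.

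**Figure D1:**
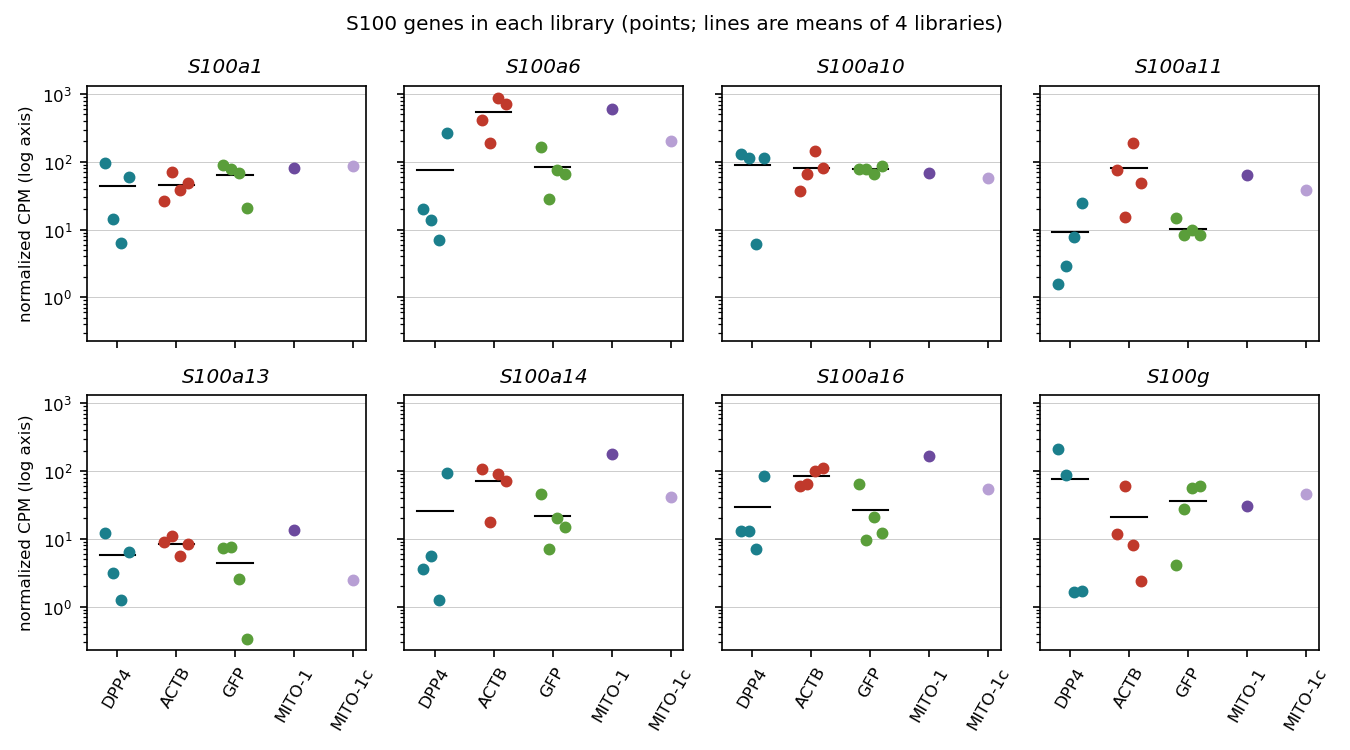
Normalized CPM (log axis) of 8 S100 genes by bait, one point per library and a line at the mean of 4 libraries for DPP4, ACTB and GFP. The 4 ACTB points of S100a6 sit between 189.8 and 887.7, above all 4 GFP points (28.58 to 165.6), while DPP4 library 4 (264.2) lies far above the other DPP4 points; S100a4, at 14 counts in all, is not drawn.

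S100a6 was highest in the ACTB libraries. It had 20.34, 13.75, 7.033 and 264.2 normalized CPM in DPP4 libraries 1 to 4. It had 414.2, 189.8, 887.7 and 712.8 CPM in the ACTB libraries and 165.6, 28.58, 75.58 and 66.85 CPM in the GFP libraries. The 4 ACTB libraries lay above the 4 GFP libraries, and DPP4 library 4 lay among the ACTB libraries, apart from the rest of its bait. The means were 76.3 ± 125 CPM in DPP4, 551 ± 310 CPM in ACTB and 84.2 ± 58.0 CPM in GFP libraries (SD, n = 4 each).

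S100a11 was also highest in the ACTB libraries. It had 1.574, 2.853, 7.849 and 24.3 CPM in the DPP4 libraries. It had 75.41, 15.39, 189.7 and 49.06 CPM in the ACTB libraries and 14.64, 8.346, 9.772 and 8.294 CPM in the GFP libraries. The ACTB and GFP libraries did not overlap, by a narrow margin: ACTB library 2 (15.39) stood next to GFP library 1 (14.64). The means were 9.14 ± 10.5 CPM in DPP4, 82.4 ± 75.6 CPM in ACTB and 10.3 ± 3.00 CPM in GFP libraries (SD, n = 4 each).

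S100a14 and S100a16 stand beside each other in the chromosome 3 block. In humans S100A14 is made mainly in epithelia, and S100A16 in many tissues. S100a14 had 3.531, 5.525, 1.256 and 94.26 CPM in the DPP4 libraries, 106.7, 17.45, 91.15 and 71.68 CPM in the ACTB libraries and 45.33, 7.187, 20.03 and 14.83 CPM in the GFP libraries. S100a16 had 12.98, 13.28, 7.159 and 83.7 CPM in the DPP4 libraries, 60.3, 65.64, 100.1 and 109.4 CPM in the ACTB libraries and 65.49, 9.572, 21 and 12.23 CPM in the GFP libraries. For both genes DPP4 library 4 and GFP library 1 reached into or near the ACTB range, and ACTB and GFP libraries overlapped.

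S100g, the calcium carrier of enterocytes, was highest in DPP4 libraries 1 and 2. It had 209.1, 88.92, 1.633 and 1.703 CPM in the DPP4 libraries, 11.82, 60.75, 8.16 and 2.393 CPM in the ACTB libraries and 4.113, 27.39, 55.58 and 60.15 CPM in the GFP libraries. Within DPP4 it differed 128-fold between the highest and the lowest library, the widest span of any member within a bait. All 3 baits overlapped.

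S100a10, S100a1 and S100a13 overlapped between all 3 baits. S100a10 had 128.8, 114.4, 6.028 and 114.6 CPM in the DPP4 libraries, 36.98, 65.1, 146.4 and 80.65 CPM in the ACTB libraries and 77.25, 77.54, 67.14 and 87.38 CPM in the GFP libraries. Its 4 GFP libraries were within 1.3-fold of each other, while DPP4 library 3 was far below all the others. S100a1, best known from heart and skeletal muscle, ranged over 6.342 to 95.72 CPM in DPP4, 26.74 to 71.51 CPM in ACTB and 21.03 to 88.59 CPM in GFP libraries. S100a13, which takes part in the export of Fgf1, was the lowest of the 8, at 1.256 to 12.17 CPM in DPP4, 5.533 to 11.04 CPM in ACTB and 0.3351 to 7.452 CPM in GFP libraries.

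The make-up of the family differed between libraries. Each member's share of the summed S100 CPM per kb was taken within a library. S100a6 held the largest share in all 4 ACTB libraries, with 46.17%, 26.78%, 48.64% and 59.3% in libraries 1 to 4. S100g led DPP4 libraries 1 and 2 with 60.09% and 55.88%, S100a11 led DPP4 library 3 with 34.19% and S100a6 led DPP4 library 4 with 35.76%. In the GFP libraries S100a1 led libraries 1 and 2 with 29.9% and 38.44%, and S100g led libraries 3 and 4 with 31.08% and 40.49%. With the length of the principal transcript in place of all annotated exons, a setting chosen after the data had been seen, S100a6 led GFP library 1 and S100a10 led GFP library 4, and the leader of the other 10 bait libraries was unchanged. DPP4 library 3 had the smallest sum over the members, 44.93 CPM per kb, against 290.4 to 1335 CPM per kb in the other 11 bait libraries.

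**Figure D2:**
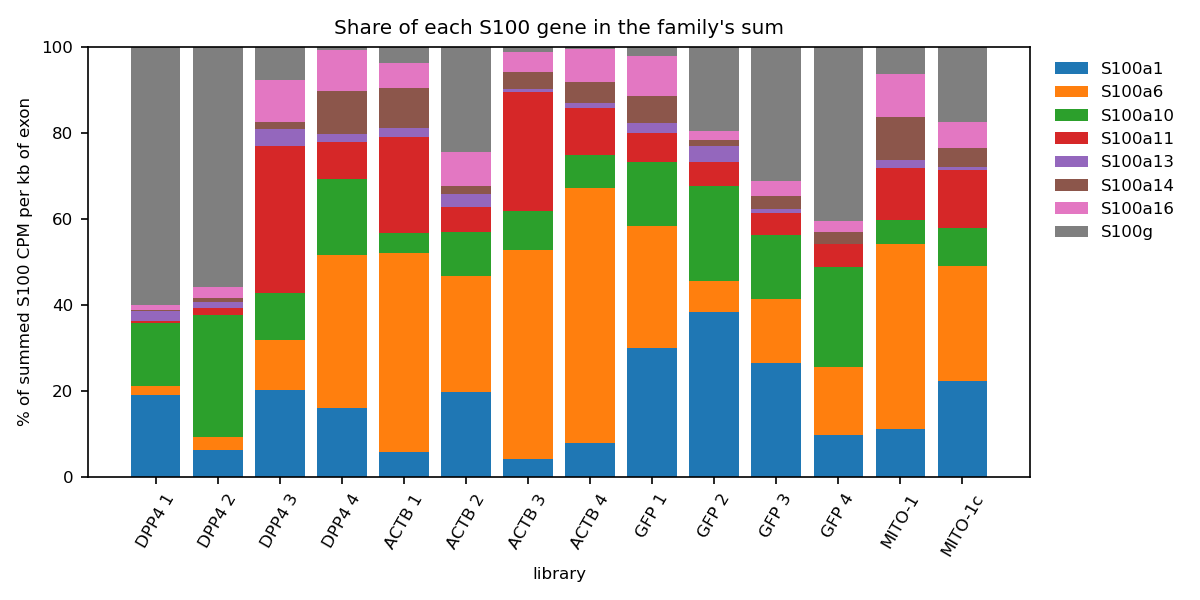
Share of each S100 gene in the summed normalized CPM per kb of exon, in percent, for each of the 14 libraries; bars are single libraries and S100a4 (under 0.06% everywhere) is not drawn. S100a6 takes 26.78% to 59.3% in the ACTB libraries, and S100g takes over 55% in DPP4 libraries 1 and 2 and under 1% in DPP4 library 4 and ACTB library 4.

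S100a6 and S100a11 were far higher in ACTB than in GFP libraries, the comparison of the 2 cytoplasmic baits that chose the members. The fitted log2 fold change was 2.72 (SE 0.57), or 6.57-fold, for S100a6 and 3.01 (SE 0.67), or 8.05-fold, for S100a11. The next members were S100a14 at 1.73 (SE 0.64), S100a16 at 1.64 (SE 0.58) and S100a13 at 0.95 (SE 1.18) on the log2 scale. S100a10 was at 0.09 (SE 0.44), S100a1 at -0.47 (SE 0.50) and S100g at -0.83 (SE 0.94). S100a4 was fitted from 11 counts and has no interpretable fold change, since all its GFP libraries were at 0. The median over the other 8 members was 1.30, against 0.11 over all 26470 genes. S100a6 and S100a11 were the 2 of 8 members, among those with a mean of at least 1 CPM, whose ACTB libraries all lay above all GFP libraries, as did 1.6% of all genes (232 of 14465). No member lay wholly below, as did 0.899% of all genes. Since this comparison chose the members, nothing is read from these counts. Over all genes edgeR's quasi-likelihood test called 0 genes (0%), where a call is a change of more than 2-fold either way at an adjusted p below 0.05, with 1486 genes at an unadjusted p under 0.05 and 73 genes called by DESeq2. Without ACTB library 2 the S100a11 difference was 3.35 and without ACTB library 3 it was 2.17, the ends of its range over 8 such fits, while that of S100a6 ran over 2.35 to 3.25. S100a14 ran over 1.44 to 2.34, S100a13 over 0.56 to 1.32 and S100a1 over -0.77 to -0.29. S100a16 was at 2.53 without GFP library 1, S100g at -2.31 without ACTB library 2 and at -0.46 without ACTB library 4, and S100a10 turned to -0.37 without ACTB library 3.

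**Figure D3:**
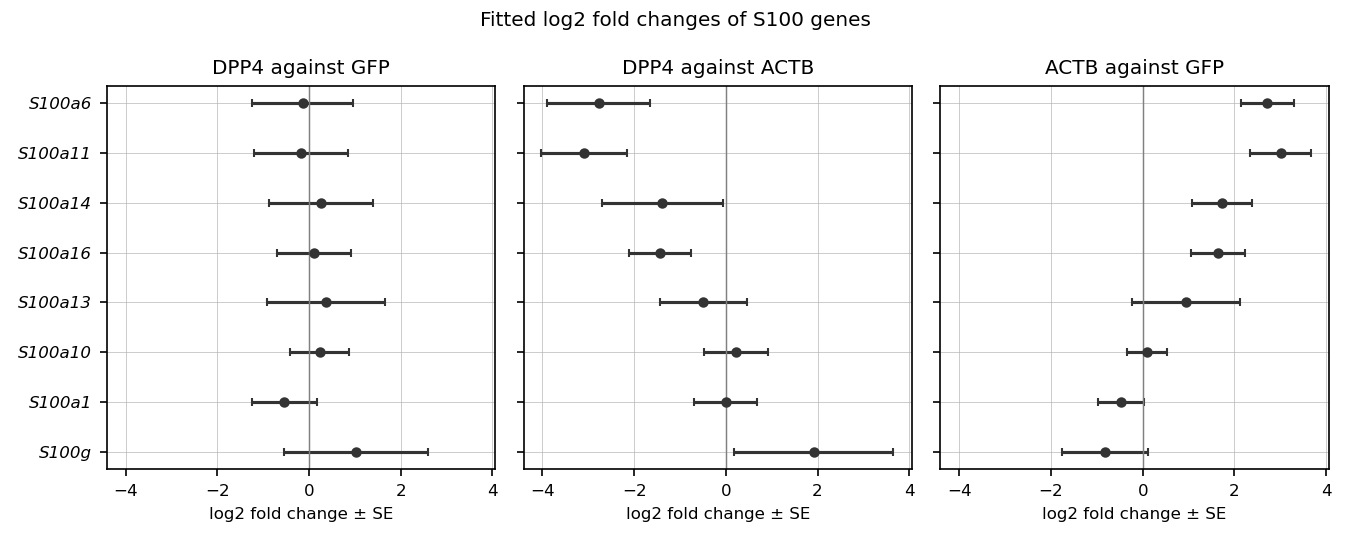
Fitted log2 fold change with its standard error (edgeR, bars) of 8 S100 genes in the 3 comparisons of baits with 4 libraries each. S100a6 and S100a11 lie at 2.72 and 3.01 in ACTB against GFP and at -2.78 and -3.09 in DPP4 against ACTB, whereas in DPP4 against GFP the members lie between -0.54 and 1.03.

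DPP4 against GFP addresses which RNAs the apical bait enriches. No S100 gene was called. Of the 8 members tested (S100a4 had 0 counts in these libraries), the fitted log2 fold changes were -0.54 (SE 0.71) for S100a1, -0.17 (SE 1.03) for S100a11, -0.14 (SE 1.11) for S100a6, 0.11 (SE 0.81) for S100a16, 0.23 (SE 0.65) for S100a10, 0.26 (SE 1.13) for S100a14, 0.37 (SE 1.28) for S100a13 and 1.03 (SE 1.57) for S100g. All 8 had an adjusted p of 1 in edgeR and none had an unadjusted p under 0.05 or was called by DESeq2. With standard errors this wide, a change of several-fold in either direction could have gone uncalled for any of the 8 members. The room was largest for S100a6, S100a11, S100a14, S100a13 and S100g. The lack of a call therefore does not show equal levels for any member. The median of the members was 0.17, against 0.09 for all 26136 genes. Over all genes 0 were called by edgeR (0%), 1534 had an unadjusted p under 0.05 and DESeq2 called 48. None of the 8 members had groups that did not overlap, against 0.713% of all genes wholly higher and 1.82% wholly lower in DPP4. The values of S100a6, S100a14 and S100a16 rested on DPP4 library 4: without it the differences were -2.62, -2.66 and -1.28, and none was called. The GFP libraries here are the ones that ranked S100a6 and S100a11 above, so these values are not independent of that choice.

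DPP4 against ACTB gave the lowest values for the same genes, from the same ACTB libraries that had ranked S100a6 and S100a11. For S100a6 and S100a11 the p-values below are therefore not an independent test. S100a6 was at -2.78 on the log2 scale (SE 1.12, lower in DPP4) and S100a11 at -3.09 (SE 0.93). S100a16 was at -1.44 (SE 0.68), S100a14 at -1.38 (SE 1.33) and S100g at 1.92 (SE 1.74). S100a13 (-0.49), S100a10 (0.22) and S100a1 (0.00) were within 1 SE of no difference. None of the 9 members was called by edgeR or DESeq2: the unadjusted p was 0.0056 for S100a11, 0.031 for S100a6 and 0.046 for S100a16 in edgeR, with an adjusted p of 0.806 for each. The median over the 8 members other than S100a4, whose DPP4 libraries were all at 0, was -0.94, against 0.05 for all 27451 genes. Over all genes edgeR called 0 (0%; 56 without ACTB library 2), 1693 had an unadjusted p under 0.05 and DESeq2 called 141. All 8 members with a mean of at least 1 CPM overlapped between the baits, against 0.89% of genes wholly higher and 2.14% wholly lower in DPP4. Without DPP4 library 4 the S100a6 difference was -5.25 and still not called (edgeR adjusted p = 0.0548), that of S100a14 was -4.30 and that of S100a16 was -2.83. S100g was at 3.43 without ACTB library 2 and at 0.65 without DPP4 library 1, and S100a13 was at -1.15 without DPP4 library 1 and at -0.23 without DPP4 library 3.

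Markers of the state of the epithelium also differed widely between libraries of a bait. Lct, the lactase of mature enterocytes, had 195.4, 15.23, 94.57 and 0 CPM in the DPP4 libraries, 0.09004, 171.5, 0.9891 and 1.168 CPM in the ACTB libraries and 0.1167, 135.5, 135.8 and 19.1 CPM in the GFP libraries. The summed level of 11 enterocyte genes was 465.7 to 91120 CPM in DPP4, 242.3 to 51470 CPM in ACTB and 419.6 to 47870 CPM in GFP libraries. The 10 genes of fetal or regenerative epithelium summed to 43.52, 51.36, 5226 and 6220 CPM in the DPP4 libraries, 7940, 1189, 29030 and 31880 CPM in the ACTB libraries and 9997, 129.8, 995.5 and 860.9 CPM in the GFP libraries. All 10 of them had a fitted value above 0 in ACTB against GFP (median log2 difference 2.18), with 0 called by edgeR, 0 by DESeq2 and 1 at an unadjusted p under 0.05. Dpp4 mRNA, whose counts in the DPP4 libraries may include the transgene, was at 53.94 to 235.9 CPM in DPP4, at 0.2926 to 0.3709 CPM in ACTB libraries 1, 3 and 4 and 155.2 CPM in ACTB library 2, and at 37.05 to 107.9 CPM in GFP libraries. The part of these markers in the S100 differences was not tested. In these bulk libraries, fewer cells of a type and less RNA per cell cannot be told apart.

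**Figure D4:**
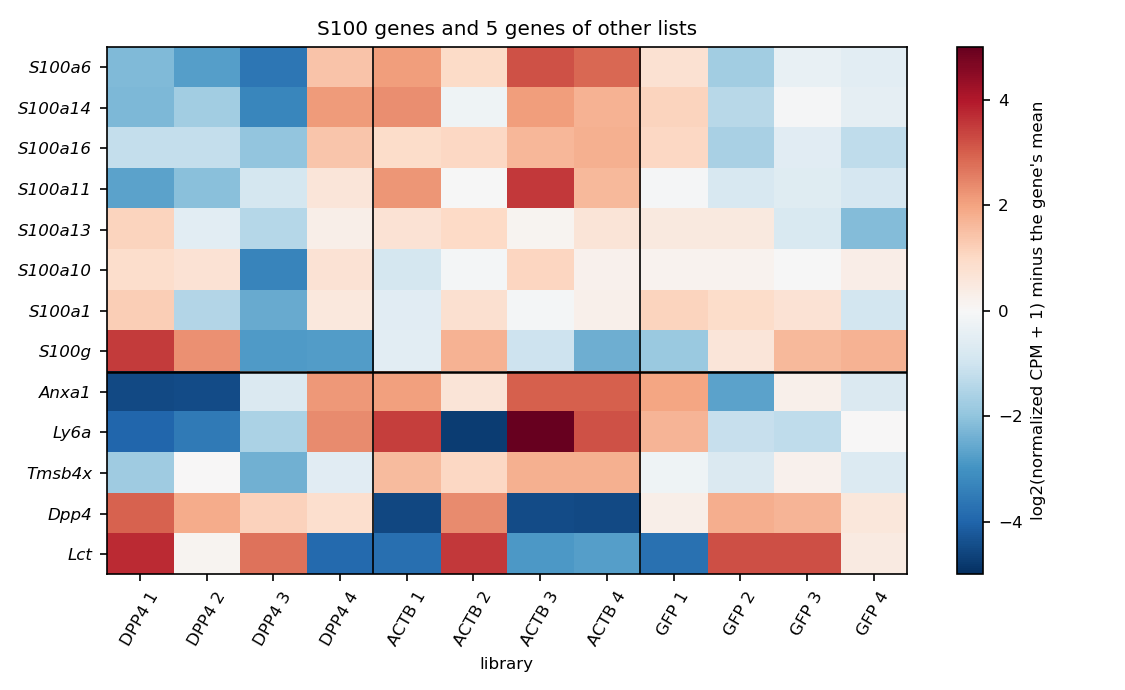
Deviation of log2(normalized CPM + 1) from each gene's mean over 12 libraries (colour, from -5 to 5) for 8 S100 genes (above the line) and for Anxa1, Ly6a, Tmsb4x, Dpp4 and Lct (under it); columns are libraries. S100a6 and S100a16 are high in all 4 ACTB libraries, S100a14 in ACTB libraries 1, 3 and 4 (17.45 CPM in library 2), and all 3 in DPP4 library 4, where S100g and Lct are low, and DPP4 library 3 is low for most members (S100a6 7.033 CPM, S100a10 6.028 CPM).

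Markers of cells from outside the epithelium were low. The 5 epithelial genes (Epcam, Cdh1, Krt8, Krt18 and Krt19) summed to 2267 to 5602 CPM in DPP4, 4833 to 10550 CPM in ACTB and 2943 to 4447 CPM in GFP libraries, so ACTB lay above GFP, and 0 of 5 were called by edgeR and 1 by DESeq2 (3 at an unadjusted p under 0.05). The 7 mesenchymal genes summed to 0.7535 to 7.232 CPM in DPP4, 0.03621 to 1.621 CPM in ACTB and 0 to 33.02 CPM in GFP libraries. edgeR called 0 of them in every comparison, with 1 at an unadjusted p under 0.05 in DPP4 against GFP, 1 in DPP4 against ACTB and 2 in ACTB against GFP. DESeq2 called 1, Vim, the vimentin gene, in DPP4 against ACTB, where it averaged 2.96 ± 3.18 CPM in DPP4 and 0.083 ± 0.061 CPM in ACTB libraries (SD, n = 4 each). The 8 immune and endothelial genes summed to 1.106 to 28.73 CPM in DPP4, 2.521 to 15.36 CPM in ACTB and 0.4306 to 40.81 CPM in GFP libraries, with 0 called by edgeR or DESeq2 and 1 gene at an unadjusted p under 0.05, in DPP4 against ACTB. Genes of crypt stem, proliferating, Paneth, goblet, enteroendocrine and tuft cells gave 0 calls by edgeR or DESeq2 and 0 genes at an unadjusted p under 0.05 in all 3 comparisons. This does not show equal levels, since edgeR called 0 genes of the whole table. In ACTB against GFP the median log2 difference was -1.69 for crypt stem, -0.134 for proliferation and -1.73 for Paneth genes (1, 2 and 0 of 5 higher). It was -2.3 for goblet genes (2 of 6 higher), and -2.87 for enteroendocrine and -1.19 for tuft genes (0 and 1 of 5 higher). S100a8 and S100a9, the calprotectin genes of neutrophils, had 14 and 1 counts in the 12 bait libraries together.

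The other 9 genes of the family were found in the table and were low in the 12 bait libraries. S100a2, S100a3, S100a5, S100z, S100a8 and S100a9 had at most 57 counts each in the 12 bait libraries, and none of these 6 reached 1 CPM in any. S100a7a reached 2.839 CPM in DPP4 library 4 and 1.809 CPM in GFP library 1, and at most 0.1236 CPM elsewhere. S100b, a gene of glia, reached 5.612 CPM in ACTB library 2 and under 1 CPM in the other bait libraries. S100a7l2 reached 8.512 CPM in GFP library 2 and 3.061 CPM in ACTB library 1. Of these 9 genes, 7 were tested in DPP4 against GFP, 7 in DPP4 against ACTB and 8 in ACTB against GFP. None of them was called by edgeR or DESeq2, and 0 had an unadjusted p under 0.05.

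The pattern of a member over the 12 bait libraries was also set against that of every gene with a mean of at least 10 CPM (9710 genes), by the mean absolute difference between the deviations of log2 CPM from each gene's own mean. The 5 genes most like S100a6 were Lgi4 (0.36), Fxyd3 (0.44), Bok (0.56), S100a14 (0.57) and Sprr2a3 (0.77), against a median of 1.96 for all genes. For S100a11 they were Bcam (0.56), Cyba (0.65), Anxa3 (0.68), Krt18 (0.68) and Alcam (0.69), against a median of 1.64. For S100g they were Fuom (0.71), Sult1d1 (0.78), Hopxos (0.78), Marc2 (0.86) and Gm45205 (0.86), against a median of 2.16. Among the members the closest pair was S100a6 with S100a14 (0.57) and the farthest S100a11 with S100g (3.36). S100a6 and S100a11 themselves differed by 0.84. S100g varied more over libraries than 91.25% of these genes and S100a6 more than 89.79%. The 12 libraries include the ACTB and GFP libraries that ranked S100a6 and S100a11. The likeness of these 2 genes and their spread are therefore not independent of that choice.

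Among 26 genes for partners of S100 proteins, 0 were called by edgeR or DESeq2 in any of the 3 comparisons. At an unadjusted p under 0.05 there were 0 in DPP4 against GFP, 1 in DPP4 against ACTB and 2 in ACTB against GFP. In ACTB against GFP 19 were higher and 7 lower (median 0.35, against 0.11 for all genes). Anxa1, the partner of S100a11, averaged 532 ± 307 CPM in ACTB and 144 ± 168 CPM in GFP libraries (SD, n = 4 each), a log2 difference of 1.89 (SE 0.89, edgeR adjusted p = 0.814). Anxa2, the partner of S100a10, averaged 968 ± 304 CPM in ACTB and 663 ± 251 CPM in GFP libraries, a log2 difference of 0.55 (SE 0.38, edgeR adjusted p = 0.961). Cacybp, the partner of S100a6, was at 0.61 (SE 0.53) and Myh9, a nonmuscle myosin bound by S100A4, at 0.26 (SE 0.51). The 2 genes with the smallest p were Anxa4, at -0.81 (SE 0.33) with all ACTB libraries below all GFP libraries, and Anxa7, at 0.80 (SE 0.37), both with an edgeR adjusted p of 0.814. In DPP4 against ACTB the gene was again Anxa4, at 1.80 (SE 0.69, edgeR adjusted p = 0.806).

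The 18 genes of intestinal calcium absorption, the setting in which S100g works, gave 17 tested in each comparison and 0 called by edgeR. DESeq2 called 1, Slc8a1, a sodium-calcium exchanger, which averaged 2.28 ± 1.78 CPM in DPP4 and 0.312 ± 0.129 CPM in ACTB libraries (SD, n = 4 each; edgeR log2 difference 2.94, SE 1.47, adjusted p = 0.838). Trpv6, the apical calcium channel, was at 0 to 5.463 CPM over the 12 libraries, with 282 counts in all. Atp2b1, the calcium pump of the basolateral membrane, differed by -0.07 (SE 0.62) in DPP4 against GFP, by 0.44 (SE 0.62) in DPP4 against ACTB and by -0.41 (SE 0.47) in ACTB against GFP. Vdr, the vitamin D receptor, which activates S100g, averaged 356 ± 284 CPM in DPP4, 85.0 ± 144 CPM in ACTB and 95.9 ± 71.5 CPM in GFP libraries (SD, n = 4 each), with log2 differences of 1.89 (SE 1.34) in DPP4 against GFP and 2.14 (SE 1.69) in DPP4 against ACTB. Vdr was not called in either (edgeR adjusted p = 1.00 in both).

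In the 2 MITO libraries, with no replicate of either, S100a6, S100a11, S100a13, S100a14 and S100a16 were higher in MITO-1. S100g and, by less, S100a1 were lower. By library totals these differences were beyond counting error. S100a6 had 10204 counts in MITO-1 and 4032 in MITO-1c, a log2 ratio of CPM by library totals of 1.37 (95% counting interval 1.32 to 1.43). The ratio was 2.20 (1.76 to 2.64) for S100a13, 1.85 (1.74 to 1.96) for S100a14 and 1.41 (1.30 to 1.51) for S100a16. It was 0.53 (0.40 to 0.66) for S100a11, 0.03 (-0.09 to 0.14) for S100a10, -0.31 (-0.41 to -0.21) for S100a1 and -0.80 (-0.95 to -0.64) for S100g. The median of 11797 genes with at least 10 counts in both libraries was -0.19, and 12.7% of these genes had a ratio over 1. TMM scaling added 0.22 to every ratio and turned no sign among the members, with S100a1 at -0.092 and S100a10 at 0.25 on that scale. Of the rest of the family, S100a7l2 had 348 counts in MITO-1 and 74 in MITO-1c, and S100b had 0 in MITO-1 and 79 in MITO-1c. Whether these ratios set labeled against unlabeled organoids is not given by the labels. The intervals cover counting error only, and the difference has no replicate check.

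**Figure D5:**
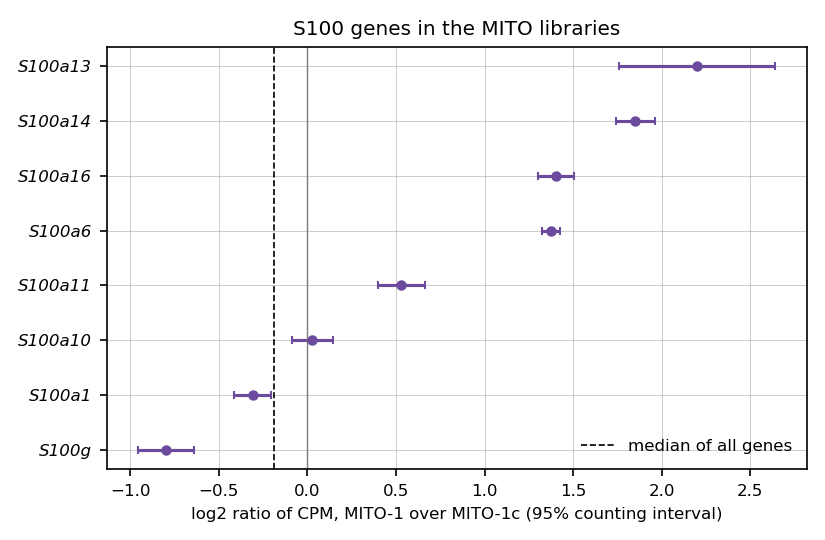
Log2 ratio of CPM in MITO-1 over MITO-1c for 8 S100 genes, from 1 library each; bars are 95% counting intervals and the dashed line is the median of all genes (-0.19). S100a13, S100a14, S100a16 and S100a6 lie at 1.37 to 2.20, S100a10 near 0, and S100g at -0.80.

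APEX2 labels guanine in RNA, so the base content of the members was read from their principal transcripts. S100a6 had 28.0% G, more than 83.1% of 21877 coding genes (longest coding transcript of each), while S100a11 had 18.0% G, more than 3.6% of them. S100a14, S100a13, S100a16 and S100a1 had 28.8%, 28.4%, 28.1% and 27.8% G. S100a4 had 26.7%, S100a10 25.1% and S100g 23.1%, against a median of 24.7%. S100a6 and S100a11 lay on opposite sides of that median. The part of G content in the S100 differences was not tested.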

How the data were processed

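RNA of streptavidin pulldowns from 14 organoid libraries was analyzed. The authors deposited raw counts per gene in 1 table with 0 columns of other samples. Per the study's methods, reverse transcription was done on the streptavidin beads by the msSCRB-seq protocol. Per the labels and these methods, the libraries were made with Nextera XT, which does not mark strand. Where along a transcript the reads fall was not examined. Read quality was assessed in FastQC 0.11.9, adapters were removed by cutadapt 4.0, STAR 2.7.9a placed the reads on GRCm38 (mm10), and HTSeq 1.99.2 counted them per gene with default settings. Gene names came from GENCODE M21: 54349 by versioned ID, 792 by unversioned ID, and 260 stayed unnamed.

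R 4.3.3, edgeR 4.0.16 and DESeq2 1.42.0 were used. Each comparison took the 8 libraries of its 2 baits, genes with at least 5 counts over them, TMM scaling, and the quasi-likelihood test of edgeR, with Benjamini-Hochberg adjustment over all genes. A call was a change of more than 2-fold either way at an adjusted p below 0.05. The study's ComBat-seq dates and the libraries it left out are not given in the sources used here, so all 4 libraries per bait were kept. No source says whether the 4 libraries per bait are separate cultures, so p-values measure only the spread between these libraries. Likeness used a prior count of 2. MITO ratios used 0.5 added counts. The steps were tested on simulated data whose libraries varied far less within a bait than these do. That test checked the code and does not measure the power of the comparisons here.

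The members and lists were chosen with earlier results of these data known. Named genes were the members, the rest of the family, fixed partner and calcium genes, up to 3 more per list and comparison with the smallest p, and the 5 genes most like S100a6, S100a11 and S100g.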

Additional observations from a re-analysis of the deposited data

Results flagged for a closer look

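Among 24 groups of 4 libraries (8 S100 genes in 3 baits), 5 held a library far from the other 3. The rule compared the gap to the nearest library with the range of the group, in CPM. Chance marks about 1 group in 20 only if values are normally distributed. CPM that spread many-fold within a bait need not meet this, and the rule was not repeated on a log scale. The groups also share libraries, so no excess over chance is read from the 5. DPP4 library 4 stood high for S100a6 (264.2 CPM, others 7.033 to 20.34), S100a14 (94.26 CPM, others 1.256 to 5.525) and S100a16 (83.7 CPM, others 7.159 to 13.28). DPP4 library 3 stood low for S100a10 (6.028 CPM, others 114.4 to 128.8). ACTB library 2 stood high for S100g (60.75 CPM, others 2.393 to 11.82).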

How the results depend on the processing

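Counts of called genes over the whole table depended on the settings. In DPP4 against GFP, with 0 calls, no filter on low counts gave 6 and DESeq2 gave 48. In DPP4 against ACTB, also 0, no filter gave 60, DESeq2 141 and the replicate block 166, and leaving out single libraries gave 0 to 56 (56 without ACTB library 2). In ACTB against GFP, DESeq2 gave 73 in place of 0, and leaving out single libraries gave 0 to 10 (10 without ACTB library 2, 1 without GFP library 1). The cause was not tested. S100a6 and S100a11 were among the genes called in DPP4 against ACTB with no filter (-2.78 and -3.10) and with the replicate block (-4.03 and -3.34). The ACTB libraries had ranked both genes, so nothing is read from these calls. Replicate numbers did not pair the samples: deviations of same-numbered libraries correlated from -0.632 to 0.497 over 7321 genes.

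In DPP4 against GFP, where no member was called, signs turned for S100a6 with DESeq2 size factors (0.00489) and DESeq2 (0.00595), for S100a10 with the block (-0.23), for S100a14 (-1.58), S100a16 (-0.26) and S100g (-1.16) with the block, for S100a16 with library totals (-0.11), and without both libraries 4 for S100a13 (-0.0590), S100a14 (-2.79) and S100a16 (-1.49). Leaving out single libraries gave -2.62 to 0.37 for S100a6, -1.33 to 0.18 for S100a11, -0.30 to 0.76 for S100a13, -2.66 to 0.84 for S100a14, -1.28 to 0.99 for S100a16 and -0.26 to 1.44 for S100g. In DPP4 against ACTB, S100a1 turned with DESeq2 size factors (0.0817), filterByExpr (0.0249) and DESeq2 (0.0818), over -0.71 to 0.31 without single libraries, and S100a10 with library totals (-0.0149), over -0.0253 to 0.65. With a prior count of 0.5 the 5 genes most like S100a6, S100a11 and S100g were the same 5 for each.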
